A study of Mus musculus with 26 samples.

Results

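Pericytes and vascular smooth muscle cells were sought among single cells of mouse skin by 7 marker genes, Rgs5, Notch3, Myh11, Kcnj8, Abcc9, Mcam and Des. A cell barcode was kept when it had at least 500 detected genes and at most 10% of its UMIs (unique molecular identifiers, each standing for 1 captured RNA molecule) from mitochondrial genes. A kept cell was a member when at least 2 of the 7 markers had a UMI and Ptprc, the pan-leukocyte gene, had none. The rule found 885 members among 23153 kept cells. In tube 1 there were 530 members of 18374 kept cells (2.89%, exact binomial 95% interval 2.65% to 3.14%). In tube 2 there were 355 of 4779 (7.43%, 6.70% to 8.21%). The members were chosen by the detection of these 7 genes and of Ptprc in these same cells, so their levels and every other comparison of members with non-members in these cells are given as a description, with no test.

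The study compared 2 fibroblast lineages of mouse skin, PPF (Prrx1-positive fibroblasts) and PNF (Prrx1-negative fibroblasts), all sorted by flow cytometry from Prrx-Cre mice after a 60 min collagenase digestion. The single-cell experiment pooled 8 hashtagged samples, which crossed lineage with caudal or ventral skin and with wounded or unwounded skin, into 2 droplet tubes; the tubes carry the tissue label postnatal ventral skin. No source used here assigns a hashtag to a sample, so each tube is 1 library that mixes lineages, sites and wounding, and no condition was compared in single cells. The bulk experiment holds 24 libraries of sorted PPF or PNF from ventral skin at E16.5, E18.5, P1 and P30, with 2, 4, 4 and 2 PNF libraries and 2, 2, 2 and 6 PPF libraries at those ages. The labels name no reporter and no surface antibodies for the sort, and they do not say whether libraries of a group came from separate animals, so p-values measure the spread between libraries only.

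Mural cells wrap blood vessels. Pericytes sit on capillaries inside the shared basement membrane, and vascular smooth muscle cells ring arterioles, arteries and veins with a contractile layer built from smooth muscle actin and myosin. Endothelial PDGF-B recruits them through the receptor PDGFRB, Jagged ligands on endothelium maintain them through NOTCH3, and the KCNJ8 pore with its ABCC9 sulfonylurea receptor subunit forms an ATP-sensitive potassium channel that relaxes them. In skin, smooth muscle also forms the arrector pili, the small muscles that raise hairs, so contractile genes alone do not mark a vessel.

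Kept cells of tube 1 held 56203306 UMIs and those of tube 2 held 26295660, and members were deeper than the rest, with a median of 3387 against 2702.5 UMIs per cell in tube 1 and 6676 against 4267 in tube 2. A deeper cell has more chances to show 2 markers, and after thinning every cell to 1000 UMIs the members made up 0.808% of tube 1 and 0.925% of tube 2. The tubes shared 42 barcode sequences, 32 of them kept, and none of these was a member. A doublet caller marked 0 of 18374 and 0 of 4779 cells and so had not worked; no doublets were removed. Ptprc alone kept out 0 cells of tube 1 and 1 cell of tube 2.

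A minority of members carried any of the markers given for the label, which were also part of the rule. Of the 885 members, 661 had none of Rgs5, Notch3, Myh11 and Mcam, the 4 markers given for the label, and qualified through Kcnj8, Abcc9 and Des; 101 had at least 2 of the 4. The commonest pair was Kcnj8 with Abcc9 and nothing else, in 340 members of tube 1 (64.2%) and 198 of tube 2. Exactly 2 markers were seen in 747 members, 3 in 80, 4 in 32 and 5 or more in 26. Just outside the rule, 4389 kept cells had exactly 1 marker.

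Members were therefore described in 4 sets, defined after their values were seen. The Rgs5 or Notch3 set holds the 83 members with Rgs5 or Notch3 and at least 2 of the 4 given markers, 58 in tube 1 (10.9% of its members, 8.42% to 13.9%) and 25 in tube 2 (7.04%, 4.61% to 10.2%). The Myh11 set holds 39 members with Myh11 plus Mcam or Des but neither Rgs5 nor Notch3, 22 in tube 1 (4.15%, 2.62% to 6.22%) and 17 in tube 2 (4.79%, 2.81% to 7.56%). The Kcnj8, Abcc9 and Des set holds the 661 members without any given marker, 409 in tube 1 (77.2%, 73.4% to 80.7%) and 252 in tube 2 (71.0%, 66.0% to 75.7%). The remaining 102 members had exactly 1 of the 4 given markers.

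**Figure D1:**
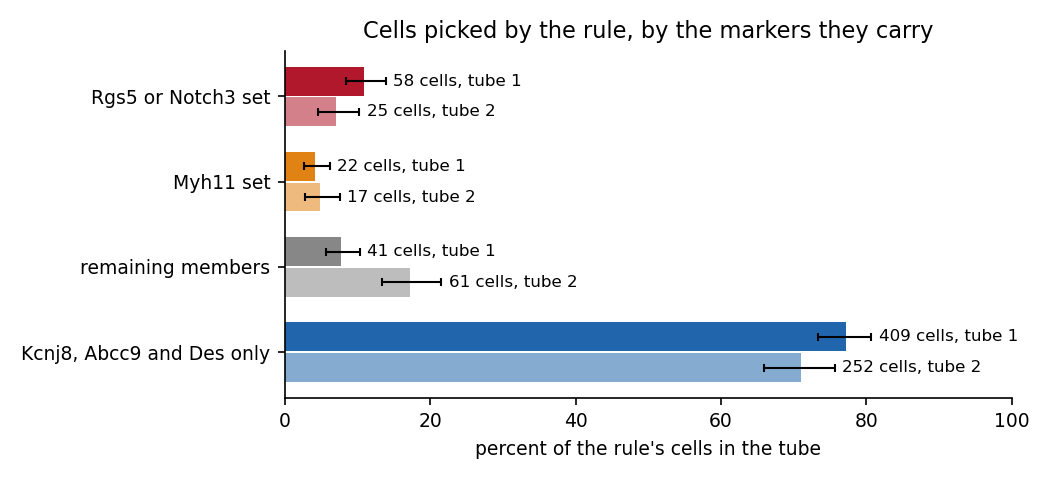
Share of the rule's members (x axis, percent) that fell in each of the 4 sets (y axis), by tube, with exact binomial 95% intervals. In both tubes the set with only Kcnj8, Abcc9 and Des holds over 70% of members, 77.2% in tube 1 and 71.0% in tube 2, and the Rgs5 or Notch3 set holds 10.9% and 7.04%.

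The sets differed in how many marker molecules each cell carried. A cell of the Rgs5 or Notch3 set held a median of 14 UMIs of the 7 markers in tube 1 and 17 in tube 2, and a cell of the Myh11 set held 16 and 4. A cell of the Kcnj8, Abcc9 and Des set held 2 and 3, the least or nearly the least that the rule accepts.

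Levels below are CPM, the UMIs of a gene summed over a set's cells per 1000000 UMIs of those cells, always beside the level in the other kept cells of the same tube. A ratio of CPM carries an exact 95% interval that covers counting error only. Genes were assessed where at least 20 UMIs were seen, or would be expected from the other cells, in both tubes. A gene is called higher or lower when its ratio reached 2-fold in the same direction in both tubes. In the small sets many genes reach 20 UMIs only because they are high there and then had to be called, so counts of called list genes are given over genes that the other cells' level alone would bring to 20 UMIs, and the rest are described by their values. Over all members, 8217 genes were assessed, of which 0.621% were called higher and 0.146% lower; all 7 rule markers were among the higher ones by choice.

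The Rgs5 or Notch3 set joined pericyte genes to a contractile program. Rgs5, a regulator of G protein signalling and the commonest pericyte marker, was seen in 55 of 58 cells in tube 1, at 4164 CPM against 0.867 in other cells. In tube 2 it was seen in all 25 cells, at 2572 against 1.36 CPM. Its UMIs per cell had a median of 7 and a maximum of 59 in tube 1, and ranged from 1 to 76 around a median of 5 in tube 2. Notch3, the mural Notch receptor, stood at 448 CPM in tube 1 and 482 in tube 2, with under 1 CPM in the other cells of either tube. Myh11, the smooth muscle myosin heavy chain, stood at 829.6 and 979 CPM, and Mcam (CD146), an adhesion molecule shared with endothelium, at 164 and 205 CPM. Des, the muscle intermediate filament, stood at 388 and 431 CPM against 6.24 and 7.47. The potassium channel pair was far less distinctive here. Kcnj8 stood at 54.6 and 117 CPM against 32.0 and 31.6 in other cells, and Abcc9 at 98.2 and 65.8 CPM against 28.3 and 15.2. Rgs5 lies at chr1:169655501-169695813 on the plus strand of GRCm38 (ENSMUSG00000026678) and Notch3 at chr17:32120820-32166852 on the minus strand (ENSMUSG00000038146).

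Over the 1096 genes assessed in the Rgs5 or Notch3 set, 9.95% were called higher and 5.84% lower, with a median log2 ratio of 0.06 in tube 1 and 0.10 in tube 2. Over the 861 genes that the other cells' level alone brings to the limit, the shares were 1.63% and 7.43%. Of the 16 pericyte genes outside the rule, 3 were among those 861 and 1 of them, Pdgfrb, was called higher. The whole list stood at 3144 against 968 CPM in tube 1 and 3032 against 878 CPM in tube 2. Higd1b, a mitochondrial protein of pericytes, stood at 213 CPM in tube 1 against 0.0738, a ratio of 2885 (1041 to 11110). In tube 2 it had 23 UMIs in the set and 1 UMI in all 4424 other cells. Gja4 (connexin 37), a gap junction protein, stood at 175 against 0.0553 CPM and 146 against 0.127 CPM, ratios of 3156 (987 to 16110) and 1148 (340.4 to 6032). Other kept cells held 4 or fewer UMIs of either gene per tube. Cox4i2, a respiratory chain subunit, was 36.6-fold higher (24.8 to 52.4) in tube 1 and 49.8-fold (30.2 to 79.2) in tube 2. Pdgfrb, the receptor for endothelial PDGF-B, was only 3.38-fold higher (2.73 to 4.13) and 4.44-fold higher (3.68 to 5.31), and other kept cells also carried it, at 155 and 201 CPM. Ndufa4l2 and Ebf1, the other 2 of the 3, were not called, with Ebf1, a transcription factor, at ratios of 1.99 and 2.99. Vtn (vitronectin), below the count limit in tube 2, had 30 UMIs in 14 cells of tube 1 and 13 UMIs in 9 cells of tube 2.

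The 20 contractile genes together stood, in the Rgs5 or Notch3 set, at 14950 CPM against 1033 in tube 1 and 19430 against 1116 in tube 2. Acta2 (smooth muscle actin) stood at 4104 against 59.8 CPM, a ratio of 68.6 (63.3 to 74.3), and at 5932 against 78.2 CPM, a ratio of 75.9 (69.8 to 82.5). Single cells ranged widely around it, from a median of 6.5 to a maximum of 91 UMIs in tube 1, and from a median of 6 to a maximum of 256 in tube 2. Tagln (transgelin), an actin-binding protein, was 41.9-fold (37.4 to 46.9) and 35.1-fold (31.4 to 39.1) higher. Myl9, the regulatory light chain of smooth muscle myosin, was 41.7-fold (36.2 to 47.9) and 54.8-fold (46.9 to 63.9) higher. Mylk, the kinase that phosphorylates this light chain, was 20.1-fold (17.3 to 23.2) and 27.5-fold (23.2 to 32.4) higher. Lmod1, a smooth muscle leiomodin, reached 218 CPM in tube 1 and 205 in tube 2, against 0.295 and 1.74. Of these genes Lmod1 differed most between the tubes in its ratio. The other cells' level alone brought 2 of the 20 to the limit, Tpm1 (tropomyosin 1) and Cald1 (caldesmon), and both were called higher, Tpm1 10.4-fold and 9.94-fold and Cald1 4.23-fold and 4.02-fold.

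Receptors and effectors of vascular tone were sparse but present. The 20 genes listed together stood at 1283 against 148 CPM in tube 1 and 1089 against 147 CPM in tube 2, and the other cells' level alone brought 0 of them to the limit. Gucy1a1, a subunit of the nitric oxide receptor guanylate cyclase, was seen in 38 of 58 and 18 of 25 cells, at 238-fold (168 to 337) and 206-fold (124 to 342) the level in other cells. Pde3a, a phosphodiesterase that hydrolyses cyclic AMP, was 5.79-fold (4.06 to 8.01) and 5.47-fold (3.403 to 8.34) higher. Ednra, the endothelin A receptor, had 26 UMIs in 22 cells of tube 1 (142 against 14.4 CPM) and 17 UMIs in 12 cells of tube 2 (124 against 15.3 CPM). Gucy1b1, the partner subunit of Gucy1a1, had 22 UMIs in 19 cells and 14 UMIs in 8 cells. Adra1a, an alpha-1 adrenergic receptor, had 0 UMIs in both tubes, whereas Adra2a had 12 and 9.

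In the Notch pathway only Hes1, a target of Notch signalling, could be assessed, and it was not called, at ratios of 1.22 (0.787 to 1.80) and 2.10 (1.48 to 2.91). The 14 listed genes together stood at 573 against 260.2 CPM in tube 1 and 599 against 278 CPM in tube 2. Jag1, a ligand, had 19 UMIs in 13 cells of tube 1 and 16 UMIs in 7 cells of tube 2, at 104 and 117 CPM against 9.13 and 6.83. Heyl, a Notch target of mural cells, had 14 UMIs in tube 1 and 6 in tube 2, at 76.4 and 43.8 CPM against 4.02 and 3.35. Notch4, the endothelial receptor, had none in either tube. Among 18 genes of endothelial and mural signalling, the other cells' level alone brought 3 to the limit, of which 1 was called lower and 0 higher. Pdgfa, a PDGF ligand, was 55.5-fold (38.4 to 78.4) and 49.7-fold (34.8 to 69.6) higher, and Tgfbr2, the type II TGF-beta receptor, was at 0.430 (0.309 to 0.584) and 0.339 (0.207 to 0.523) of the other cells.

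Basement membrane genes and their integrins were partly higher, 3 of the 8 that the other cells' level alone brings to the limit (Col4a1, Col4a2 and Itgb1). Col4a1, a collagen IV chain of the vascular basement membrane, stood at 1108 against 311 CPM and at 1899 against 375 CPM, ratios of 3.57 (3.09 to 4.10) and 5.06 (4.46 to 5.73). Itga7, the laminin receptor subunit of muscle, was 159-fold (102 to 244) and 190.3-fold (97.4 to 374) higher. Itga1, a collagen IV receptor subunit, was 18.6-fold (14.6 to 23.3) and 14.8-fold (11.5 to 18.8) higher. The laminin chains Lama4, Lamb1 and Lamc1 were not called, with ratios between 0.767 and 1.497. Outside the lists, genes named by the size of the difference included Tinagl1, a secreted matrix protein (322 against 0.406 CPM and 497 against 0.424), Rgs16, a relative of Rgs5 (74.0-fold and 107-fold higher), Sncg (gamma-synuclein, 316-fold and 394-fold) and Sept4 (78.1-fold and 118-fold).

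Fibroblast genes were lower in the Rgs5 or Notch3 set but not absent. All 13 assessed reach the limit from the other cells' level alone, and of them 10 were called lower and 0 higher, with median log2 ratios of -1.17 and -1.91. Pi16, a marker of adventitial-like fibroblasts, was at 0.239 (0.153 to 0.356) and 0.103 (0.0445 to 0.203) of the other cells. Mfap5, a microfibril protein, was at 0.306 (0.217 to 0.418) and 0.196 (0.110 to 0.323). Dcn (decorin), a proteoglycan that nearly every kept cell carried, stood at 6932 against 15640 CPM and at 5070 against 15060 CPM. Cells of the set held a median of 3.5 Dcn UMIs and at most 94 in tube 1, and a median of 14 and at most 142 in tube 2. Over 20 Dcn UMIs were found in 19 of 58 cells (32.8%) and 7 of 25 (28.0%). A Dcn UMI was also seen in 112 of 123 Ptprc-positive cells of tube 1 and 50 of 50 of tube 2, at a median depth of 1945 and 2683 UMIs. A Dcn UMI alone thus did not set Ptprc-negative cells apart. No doublets were removed, and the source of these Dcn UMIs was not tested.

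Markers of other cell types were given for the whole lists. The endothelial list stood at 120 against 41.0 CPM in tube 1 and 168 against 35.8 in tube 2, with 7 of its 10 genes at 0 in each tube. Pecam1, Cdh5, Kdr, Cldn5 and Emcn, which define endothelium, were at 0 in both. Flt1 held most of this signal, with 18 UMIs in 12 cells and 19 UMIs in 7 cells. The leukocyte list stood at 180.1 against 89.8 CPM in tube 1, 23 of its UMIs being Cd74 in 2 cells, and at 14.6 against 119 CPM in tube 2. The proliferation list, with no gene assessed, stood at 415 against 164 CPM and 511 against 129 CPM; Mki67 was seen in 5 and 3 cells. Schwann cell and erythroid lists were at 0 in tube 1 and at 14.6 and 0 CPM in tube 2. The part of these genes in the results was not tested.

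**Figure D2:**
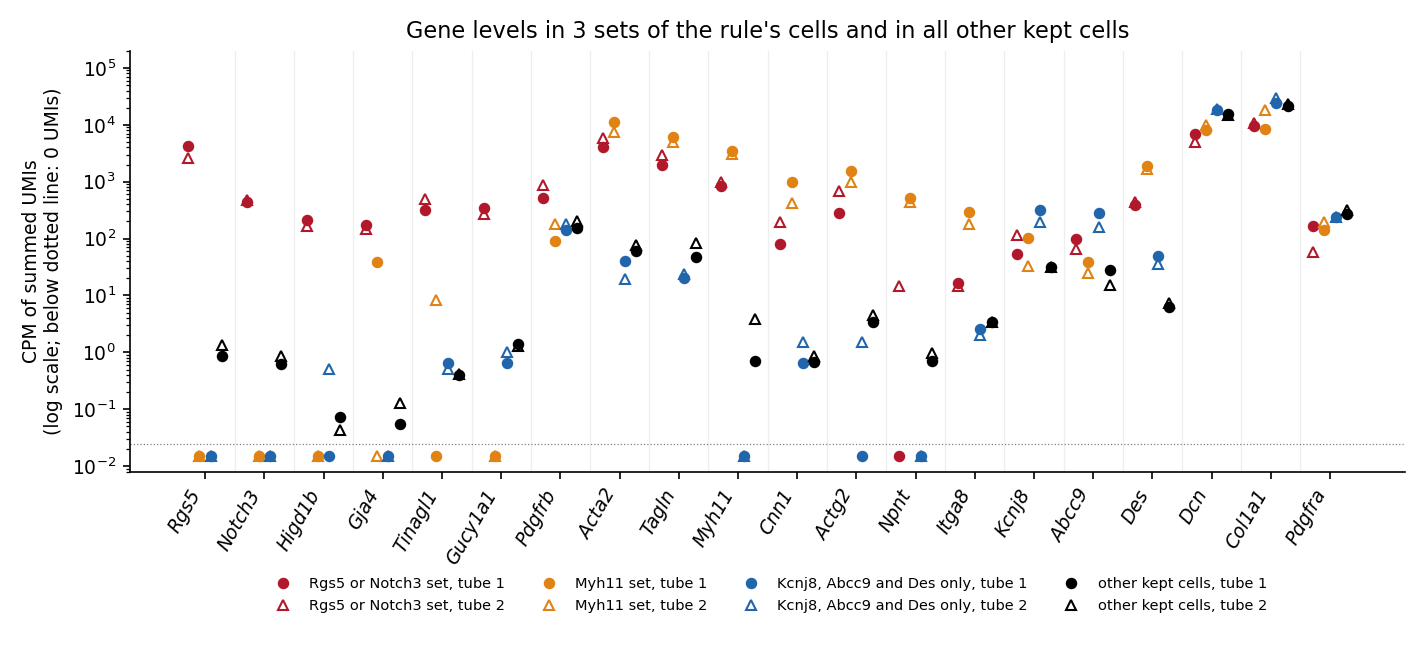
Level of 20 genes (x axis) as CPM of summed UMIs on a log scale (y axis) in 3 sets of members and in the other kept cells, filled circles for tube 1 and open triangles for tube 2; points under the dotted line are 0 UMIs. Higd1b, Gja4, Tinagl1 and Gucy1a1 stand above 140 CPM only in the Rgs5 or Notch3 set, Npnt and Itga8 are highest in the Myh11 set, and the Kcnj8, Abcc9 and Des set lies close to the other kept cells for the fibroblast genes and near or below them for Acta2 and Tagln.

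The Myh11 set carried contractile genes at a high level, with the pericyte list at 787 against 968 CPM in tube 1 and 820.4 against 878 CPM in tube 2. Myh11 itself stood at 3522 CPM in tube 1 and 3099 in tube 2, and Des at 1909 and 1682 CPM. Rgs5 and Notch3 are at 0 by definition of the set. Over 599 assessed genes, 10.7% were called higher and 0.668% lower, with a median log2 ratio of 0.00 and -0.04. Over the 479 genes that the other cells' level alone brings to the limit, the shares were 1.88% and 0.835%. The contractile list stood at 42850 against 1033 CPM and at 30620 against 1116 CPM. Its 1 gene among those 479, Cald1, was called higher. Acta2 stood at 11150 CPM (186-fold, 173 to 201) and 7376 CPM (94.4-fold, 87.0 to 102). Cnn1 (calponin), an actin-binding regulator of mature smooth muscle, stood at 1006 against 0.664 CPM and at 423 against 0.849 CPM. Actg2, the gamma smooth muscle actin of visceral muscle, was 437-fold (344 to 552) and 225-fold (172 to 295) higher. Myocd (myocardin), the coactivator of smooth muscle genes, had 12 UMIs in 9 cells of tube 1 and 4 UMIs in 4 cells of tube 2.

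Other genes set the Myh11 set apart from the Rgs5 or Notch3 set. Npnt (nephronectin), a basement membrane protein known from the hair follicle site where the arrector pili attaches, stood at 516 against 0.701 CPM (736-fold, 460.3 to 1179) in tube 1. In tube 2 it stood at 431 against 0.976 CPM (442-fold, 266 to 756). Itga8, the integrin subunit that binds nephronectin, was 88.4-fold (54.6 to 137) and 52.4-fold (31.2 to 84.7) higher. In the Rgs5 or Notch3 set Npnt had 0 and 2 UMIs and Itga8 had 3 and 2. Adra1a, at 0 in the Rgs5 or Notch3 set, had 16 UMIs in 10 cells of tube 1 and 6 UMIs in 3 cells of tube 2. Conversely, Higd1b, Gucy1a1 and Rgs4 had 0 UMIs in the Myh11 set of both tubes. Npnt or Itga8 was seen in 15 of 22 and 7 of 17 cells of the Myh11 set, and in 3 of 58 and 3 of 25 cells of the other. At least 1 of Higd1b, Gja4, Tinagl1, Cox4i2 and Vtn was seen in 4 of 22 and 1 of 17 cells of the Myh11 set, and in 47 of 58 and 21 of 25 cells of the other. The sets were split on Rgs5, Notch3 and Myh11, so genes that go with these are described here and not tested.

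Fibroblast genes were not called in the Myh11 set, 0 of 13 assessed, although their list stood at 44440 against 100200 CPM in tube 1 and 63890 against 82450 in tube 2. Dcn passed 20 UMIs in 9 of 22 cells (40.9%) and 11 of 17 (64.7%). The 2 tubes differed within the set. A cell of tube 1 held a median of 28.5 Acta2 UMIs and 8.5 Myh11 UMIs, and a cell of tube 2 held 2 and 1, with maxima of 224 and 92, so that a few cells gave most of the contractile UMIs of tube 2. The 4 genes called lower were Saa3, an acute phase protein (0.118, 0.0813 to 0.166, and 0.241, 0.198 to 0.289), the protease Mmp3, the noncoding RNA Meg3 and the TGF-beta coreceptor Tgfbr3. The skeletal muscle list, whose genes include sarcomere proteins, stood at 77.4 and 24.9 CPM against 7.88 and 7.77. Pecam1 and Cdh5 were at 0. The part of these genes in the results was not tested.

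**Figure D3:**
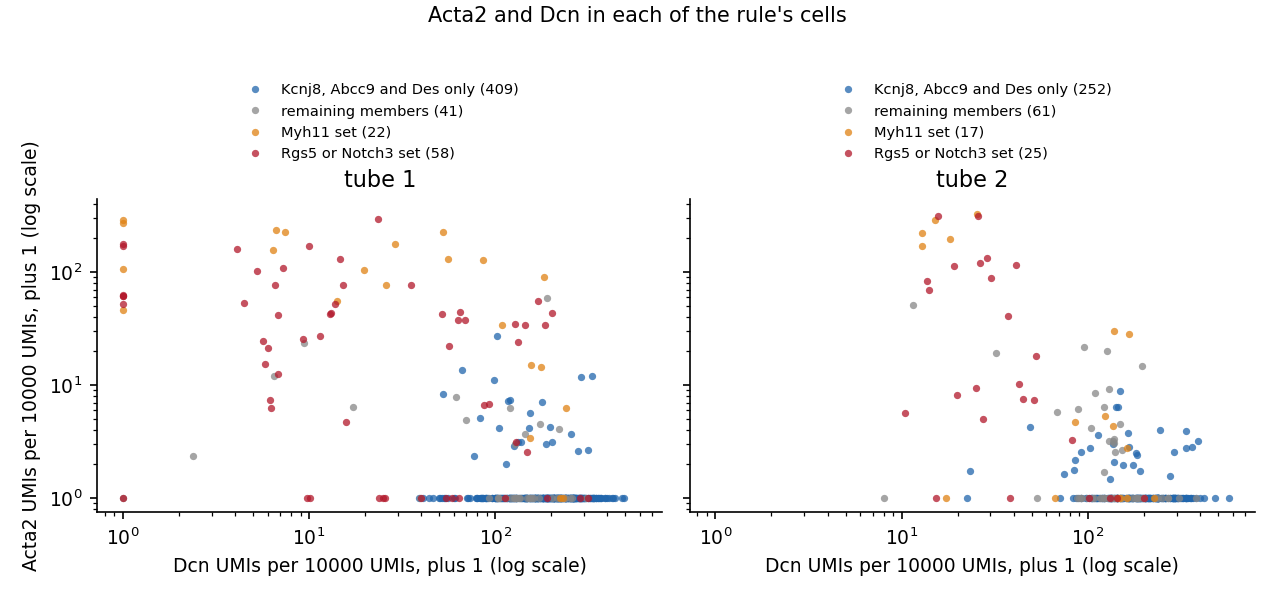
Each point is 1 cell of the 4 sets in tube 1 and tube 2. Acta2 (y axis) is set against Dcn (x axis), both as UMIs per 10000 UMIs plus 1 on log scales. Cells of the Kcnj8, Abcc9 and Des set gather at high Dcn with Acta2 mostly at 0. Acta2 was seen in 44 of 58 and 19 of 25 cells of the Rgs5 or Notch3 set. In the Myh11 set it was seen in 20 of 22 and 11 of 17 cells. Dcn in these 2 sets reaches into the fibroblast range. Its lowest values were 0 UMIs in tube 1, and 3 and 6 UMIs in tube 2.

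Promoters of 3 of these genes are shown because contractile genes share the CArG box, the letters CC, then 6 of A or T, then GG, to which serum response factor binds with myocardin, while Rgs5 does not carry one in this window. The box, which reads the same on both strands, was searched in the 250 bases before each start in the RefSeq promoter table (GRCm38.p6). It was found in 482 of 32851 windows (1.47%), in 2 of 17 windows of the contractile list (Myl9 and Rergl; 16 of 20 genes were in the table), in 1 of 16 windows of the pericyte list (Trpc6) and in 0 of 6 windows of the rule markers. A near match, with 1 of the 6 middle letters a C or G, was in 2380 windows (7.24%) and in 2 of the 17 contractile windows. Capitals mark the box or near match. The Myl9 stretch lies at chr2:156775214-156775419 and the Rgs5 stretch at chr1:169655251-169655500, both on the plus strand and upstream of the gene body. The Acta2 stretches lie at chr19:34255438-34255467 and chr19:34255388-34255417 on the minus strand. Both are before the RefSeq start but inside the GENCODE gene body, chr19:34241090-34255590.
Myl9: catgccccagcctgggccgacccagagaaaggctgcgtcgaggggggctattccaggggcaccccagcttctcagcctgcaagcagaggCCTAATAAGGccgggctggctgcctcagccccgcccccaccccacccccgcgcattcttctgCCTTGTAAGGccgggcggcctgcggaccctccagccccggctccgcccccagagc
Rgs5: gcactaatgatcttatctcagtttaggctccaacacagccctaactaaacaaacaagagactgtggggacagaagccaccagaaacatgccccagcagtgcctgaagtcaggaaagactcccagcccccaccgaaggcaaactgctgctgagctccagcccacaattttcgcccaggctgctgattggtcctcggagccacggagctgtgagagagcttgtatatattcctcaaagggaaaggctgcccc
Acta2, distal near match: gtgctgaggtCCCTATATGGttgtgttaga
Acta2, proximal near match: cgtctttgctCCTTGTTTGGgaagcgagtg
A match is a stretch of letters and no evidence of binding, and the window of Rgs5 without capitals says nothing about the factor. In the cells above, Myl9 and Acta2 were higher in both the Rgs5 or Notch3 set and the Myh11 set, while Rgs5 separates those sets by definition.

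The Kcnj8, Abcc9 and Des set looked like the other kept cells of its tube in nearly every gene. Of 7320 genes assessed, 0.041% were called higher, which were Kcnj8, Abcc9 and Des themselves, and 0.355% were called lower. Kcnj8 stood at 313 CPM in tube 1 and 196 in tube 2, Abcc9 at 281 and 162, and Des at 50.4 and 36.2. A median cell held 1 UMI of Kcnj8 and 1 of Abcc9 in either tube. None of the 7 pericyte genes assessed was called, and the pericyte list stood at 972 against 968 CPM and 894 against 878 CPM. Pdgfrb was at 0.924 (0.805 to 1.06) and 0.908 (0.814 to 1.01) of the other cells. Contractile genes leaned the other way. Acta2 was at 0.669 (0.512 to 0.860) and 0.251 (0.178 to 0.344), and 2 of 9 assessed, Tagln and Tpm2 (tropomyosin 2), were called lower, Tpm2 at 0.383 (0.286 to 0.503) and 0.396 (0.303 to 0.511).

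The Kcnj8, Abcc9 and Des set carried fibroblast genes at or above the level of other kept cells, with 0 of 14 called. Their list stood at 114800 against 100200 CPM in tube 1 and at 105700 against 82450 in tube 2. Dcn was seen in 409 of 409 and 252 of 252 cells, with a lowest value of 7 and 14 UMIs and a median of 63 and 139.5, against medians of 42 and 61 in the other cells. Of the other kept cells, 17790 of 17844 and 4424 of 4424 had a Dcn UMI, so detection hardly differed. Cells of the set were also deeper, with a median of 3396 against 2702.5 UMIs per cell in tube 1 and 6941 against 4267 in tube 2. The Dcn medians are not corrected for this depth. The genes named as higher by size stayed under 2-fold in at least 1 tube. Sfrp4, a secreted Wnt modulator, was 1.92-fold (1.61 to 2.26) and 2.76-fold (2.35 to 3.22) higher. Dpp4, a cell-surface peptidase, stood at 83.3 against 45.9 CPM and 74.9 against 41.3 CPM. Lgr5, a receptor for R-spondins, was 1.66-fold (1.44 to 1.90) and 1.67-fold (1.45 to 1.91) higher, and Pi16 1.30-fold (1.23 to 1.38) and 1.55-fold (1.48 to 1.63). Genes called lower included the myofibroblast matrix protein Tnc (0.447 and 0.475), Coch (0.329 and 0.186), Wif1, a Wnt inhibitor (0.197 and 0.261), Col7a1 (0.265 and 0.431) and the neutrophil genes S100a8 and S100a9, which had 1 and 0 UMIs in tube 1. The leukocyte list stood at 48.4 against 89.8 CPM and 44.7 against 119 CPM, its part in the result not tested. Members needed Ptprc at 0 while the other kept cells included the Ptprc-positive cells, so the rule itself favours lower leukocyte genes in the set.

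Because Kcnj8 and Abcc9 made up most members, their joint detection was described over all kept cells. Abcc9 had a UMI in 19.1% (17.3% to 21.0%) of 1864 cells with Kcnj8 in tube 1, and in 8.55% (8.12% to 8.98%) of 16510 cells without. In tube 2 the shares were 27.6% (24.5% to 30.8%) of 808 and 9.07% (8.19% to 10.0%) of 3971. After each cell was thinned to 1000 UMIs, 7.50% against 3.49% held Abcc9 in tube 1 and 6.03% against 2.49% in tube 2 (means of 100 draws). In 123 and 50 Ptprc-positive cells, Kcnj8 was seen in 5 and 4 cells and Abcc9 in 7 and 3. Kcnj8 (ENSMUSG00000030247) at chr6:142564837-142571614 and Abcc9 (ENSMUSG00000030249) at chr6:142587862-142702315 are neighbours on the minus strand of GRCm38.

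**Figure D4:**
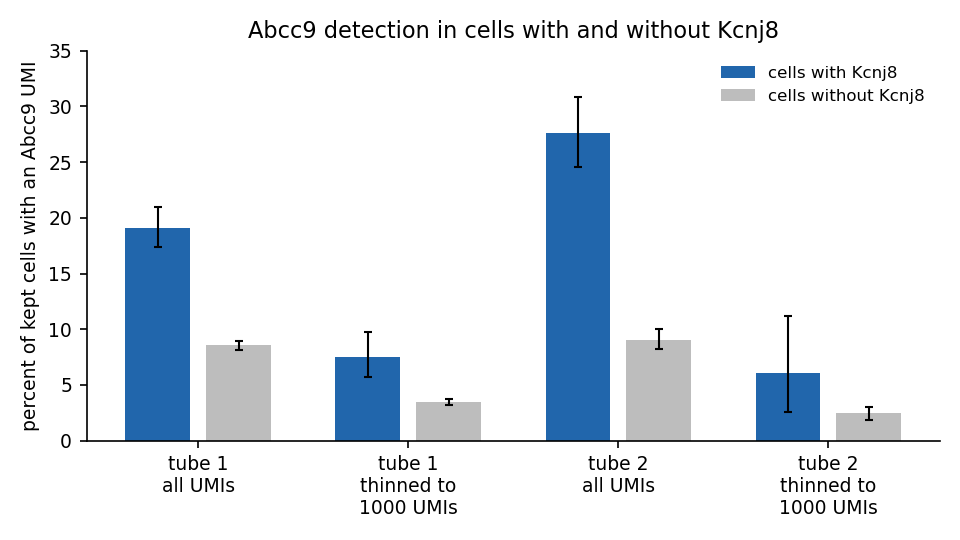
Percent of kept cells with an Abcc9 UMI (y axis) in cells with and without Kcnj8 (x axis) for each tube, with all UMIs (bars of error are exact binomial 95% intervals) and after thinning to 1000 UMIs (mean, lowest and highest of 100 draws). Abcc9 is more frequent beside Kcnj8 in both tubes, 19.1% against 8.55% in tube 1 and 27.6% against 9.07% in tube 2, and the shares shrink but keep their order after thinning.

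The remaining 102 members lay between the sets. Over 1355 genes assessed, 0.221% were called higher and 0% lower. Over the 1194 genes that the other cells' level alone brings to the limit, both shares were 0%. Acta2 was the only called gene outside the rule markers, but it was not among those 1194 and is described by its values. It stood at 305 against 59.8 CPM (5.10-fold, 3.83 to 6.65) and 256 against 78.2 CPM (3.28-fold, 2.71 to 3.94). Tagln was 2.73-fold (1.73 to 4.11) higher in tube 1 and 1.53-fold (1.16 to 1.97) in tube 2. Dcn was at 0.847 and 0.978 of the other cells. Cxcl10, an interferon-induced chemokine, was 1.69-fold (1.07 to 2.53) and 4.45-fold (3.69 to 5.31) higher.

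The bulk libraries were not used to choose the members, so mural genes were tested there, in a single fit of all 15559 genes that passed the count filter (edgeR quasi-likelihood, Benjamini-Hochberg adjustment, threshold 0.05). Bulk values are CPM of reads after library scaling. In a bulk sample fewer mural cells, less RNA per mural cell and expression in other cells cannot be told apart. The other kept single cells of tube 1 and tube 2 held Kcnj8 at 32.0 and 31.6 CPM and Acta2 at 59.8 and 78.2 CPM. Rgs5 stood there at 0.867 and 1.36 CPM. The authors' counts are per transcript, and reads that several transcripts share appear uncounted. Among genes of at least 50 CPM in single cells the median bulk level was 182 CPM for 791 genes with 1 transcript, 22.7 for 781 with 2 to 4 and 6.66 for 880 with 5 or more, and the cause was not tested. Pdgfrb reached at most 5.25 CPM in bulk against 155 and 201 CPM in the other kept single cells, Abcc9 had 0 counts and Myh11 had 1 count in all. Neither of the last 2 could be tested.

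Of the 5 rule markers tested between PPF and PNF, averaged over the 4 ages, 0 passed, where 0.675% of all genes did (105 of 15559; 0.0836% higher and 0.591% lower in PPF). At an unadjusted p under 0.05 there was 1 of the 5, against 2164 genes in all. Rgs5 had a log2 difference of -0.82 with a standard error of 0.42 and an edgeR adjusted p of 0.4125. Notch3 had a log2 difference of -0.19 (SE 0.54, edgeR adjusted p = 0.9976), Kcnj8 of 0.11 (SE 0.54, 0.9999), Des of -0.60 (SE 0.59, 0.7652) and Mcam of -1.22 (SE 0.57, 0.3446). The spread between libraries was wide beside these differences.

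Between P30 and E16.5, averaged over both lineages, 0 of the 5 passed as well, where 0.752% of all genes did (117 of 15559, 0.418% higher and 0.334% lower at P30); 1 of the 5 and 2465 of all genes had an unadjusted p under 0.05. Rgs5 had a log2 difference of -1.45 (SE 0.61, edgeR adjusted p = 0.2388). The 2 PNF libraries at E16.5 held 94.8 and 144 CPM and the 2 PPF libraries 64.6 and 121 CPM. At E18.5 the PNF libraries held 93.3, 76.4, 204 and 269 CPM and the PPF libraries 173 and 215 CPM. At P1 the PNF libraries held 109, 352.0, 94.7 and 77.9 CPM and the PPF libraries 129 and 72.9 CPM. From E16.5 to P1 the lineages overlapped at every age. At P30 the PNF libraries held 74.96 and 109 CPM and the 6 PPF libraries 12.01, 25.7, 2.99, 3.398, 35.2 and 16.9 CPM. All 6 PPF libraries at P30 lay below every other bulk library, which was seen in the data and not tested on its own. How many of all genes separate these libraries in the same way was not counted.

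Kcnj8 took another course. Its PPF libraries at P30 held 94.0, 413, 403, 344, 148 and 145 CPM and its PNF libraries there 1.02 and 104 CPM. Before birth PPF held 166 and 151 CPM at E16.5 and 77.6 and 39.4 CPM at E18.5, and PNF between 46.5 and 196 CPM. Its P1 libraries spread from 6.77 to 217 CPM. The PPF libraries of P30 that were lowest of all in Rgs5 thus included the 3 highest of all in Kcnj8, PPF P30 B, C and D. These 3 also held the most of the fibroblast list, at 88190, 175400 and 150800 CPM. Every other bulk library held between 1682 and 35850 CPM of that list. Its part in the Rgs5 and Kcnj8 values was not tested. Notch3 held 0 and 78.0 CPM in the 2 PNF libraries of P30. The library at 0, PNF P30 A, also had 44.6% of its counts from hemoglobin and other erythroid genes, and PNF E18.5 A had 43.0%. Without both of these libraries the Kcnj8 difference between lineages changed sign to -0.23, and without PNF P30 B, which leaves PNF P30 A alone in its group, the Notch3 difference became 2.61 with an edgeR adjusted p of 0.01151.

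**Figure D5:**
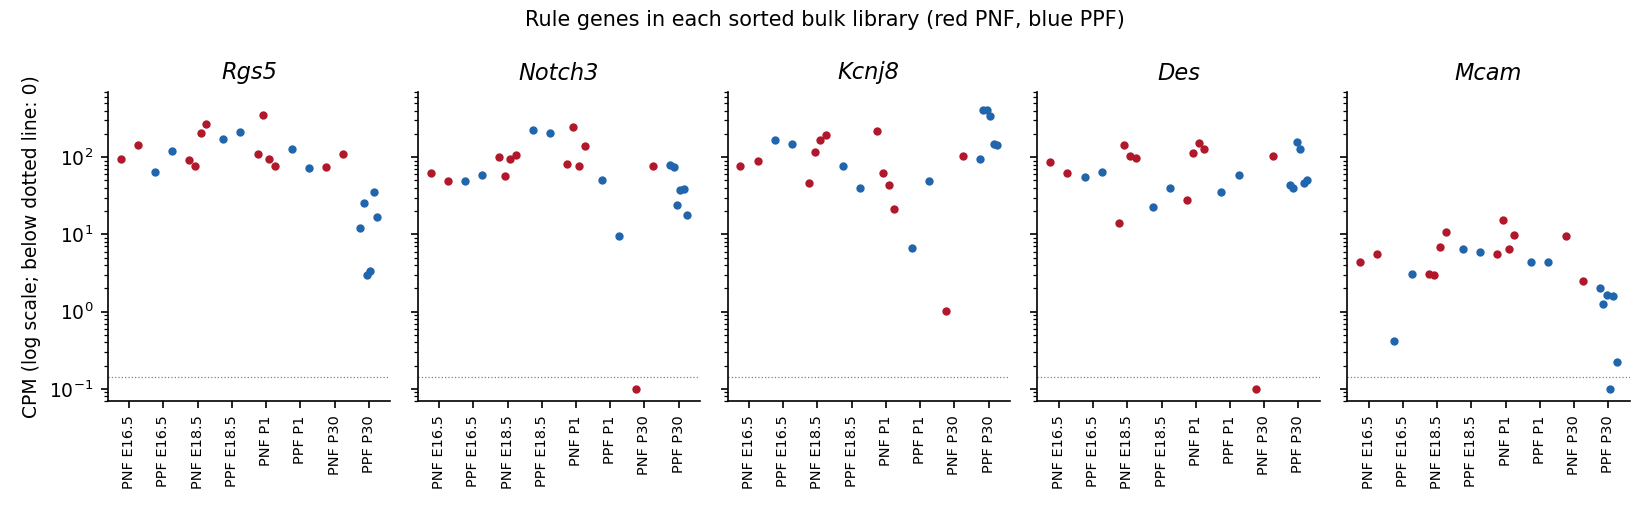
Level of Rgs5, Notch3, Kcnj8, Des and Mcam in each bulk library (y axis, CPM on a log scale; points below the dotted line are 0) in the 8 groups (x axis), PNF in red and PPF in blue, 1 point per library. The 6 PPF libraries at P30 hold 2.99 to 35.2 CPM of Rgs5, below every other library, and 94.0 to 413 CPM of Kcnj8. Whether many other genes separate these libraries was not counted.

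Among the pathway lists in bulk, 1 gene passed between lineages and 0 between ages. For PPF against PNF, 0 of 14 pericyte genes, 0 of 16 contractile genes, 1 of 15 vascular tone genes and 0 of 14 Notch pathway genes passed, with median log2 differences of 0.14, -0.39, -0.37 and -0.08 beside -0.14 over all genes. For P30 against E16.5 the counts were 0 of 14, 0 of 16, 0 of 15 and 0 of 14, with medians of 0.44, -0.40, -0.04 and 0.32 beside -0.01. Levels of the contractile genes varied widely, and Pln and Casq2, calcium-handling proteins, were at 0 in all 24 libraries. Acta2 ranged from 383 to 2287 CPM over the 24 libraries. At E18.5 PNF held 541, 999.5, 1545 and 2287 CPM and PPF 445.5 and 472 CPM. The lineages did not overlap there, and the share of all genes without overlap at E18.5 was not counted. The genes nearest to the threshold between lineages were Jag2, a Notch ligand (log2 difference -4.86, SE 1.29, edgeR adjusted p = 0.08086), and Ednrb, the endothelin B receptor (-2.32, SE 0.66, edgeR adjusted p = 0.1015). Pdgfrb differed by 2.31 (SE 0.89, edgeR adjusted p = 0.2155) at levels of at most 5.25 CPM. Between ages Ednrb came nearest (3.93, SE 1.06, edgeR adjusted p = 0.08053).

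The gene that passed was P2rx1, an ATP-gated cation channel of arterial smooth muscle that platelets and leukocytes also carry. It was lower in PPF, as were 0.591% of all genes, with a log2 difference of -6.03 (SE 1.02, edgeR adjusted p = 0.01644). PNF libraries held 4.27 and 1.90 CPM at E16.5, 6.21, 0.899, 3.87 and 3.31 at E18.5, 2.70, 1.68, 1.15 and 1.39 at P1 and 0 and 1.87 at P30. Of the PPF libraries, 1 at E16.5 held 0.591 CPM and the other 11 held 0. Apart from PNF P30 A, every PNF library lay above every PPF library. That separation, with PNF P30 A set aside, was seen in the data and not tested on its own. The share of all genes that separate the libraries in this way was not counted. Over 30 alternative settings 22 kept the call, with an adjusted p from 2.214e-06 to 0.9999. It was lost under 1 other model setting and without PPF E16.5 A (0.1266), PPF E16.5 B (0.06828), PPF E18.5 A (0.09546), PPF E18.5 B (0.0955), PPF P1 A (0.1333), PPF P1 B (0.16) or PNF P30 B (0.9999).

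Markers of some other cell types were lower in PPF as well, beside 0.591% and a median of -0.14 over all genes. The leukocyte list was lower in 4 of 7 genes tested (median log2 difference -5.57), the keratinocyte list in 7 of 9 (-5.39), the Schwann list in 3 of 7 (-5.61) and the skeletal muscle list in 3 of 9 (-4.24). None passed of 9 endothelial genes (-1.65), 4 melanocyte genes (-2.61) and 4 erythroid genes (-3.67). Summed leukocyte genes ranged from 32.0 to 4303 CPM in PNF and from 1.31 to 168 CPM in PPF. In single cells P2rx1 had 1 UMI in the Rgs5 or Notch3 set of each tube, 0 in the Myh11 set and 5 UMIs in 2 Ptprc-positive cells of tube 2. The part of these cell types in the P2rx1 result was not tested. With age, the dissociation and stress list was higher in 3 of 11 genes tested (median 1.66), beside 0.418% and a median of -0.01 over all genes, and its part in the age values above was not tested either.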

How the data were processed

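The single-cell files hold the authors' deposited UMI counts per gene and barcode, 31053 gene rows and 10 hashtag rows per tube; the bulk file holds their deposited read counts per transcript. The submitters' processing notes name Seurat 3.1.1, Seurat 3.2 and mm10, with no aligner stated. The 26 samples are 2 single-cell tubes and 24 bulk libraries, grouped by their labels.

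Single cells were read in Python 3.11.15 with numpy 2.4.6, scipy 1.17.1, pandas 2.3.3 and scanpy 1.11.5. Counts were summed per set and tube. With 1 library per tube no test was run; intervals (exact Poisson, exact binomial or exact conditional, 95%) cover counting error only. Counts below 3, those of 0 included, were raised to a floor of 3 in the ratios used for calls. Thinning drew 1000 UMIs per cell and left out shallower cells. Named genes are, per set, up to 12 higher and 12 lower by the less extreme of the 2 tube ratios, without rule markers, Ptprc, predicted, mitochondrial, ribosomal, hemoglobin and sex-linked genes, plus up to 5 genes per list with the highest level; text naming further genes was chosen after their values were seen. The members, the 4 sets and the 20 gene lists were chosen with earlier results of these data known.

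Transcript counts were summed per GENCODE vM21 gene (GRCm38): 82946 of 95883 transcripts matched, and 3.33% to 7.10% of counts per library did not. Library totals ranged from 4264657 to 17190154 counts. Genes were tested with edgeR 4.0.16 (quasi-likelihood, TMM scaling, 8 groups in 1 fit, R 4.3.3), PPF minus PNF over the 4 ages and P30 minus E16.5 over both lineages, with Benjamini-Hochberg adjustment over 15559 genes. Standard errors were derived from the fold change and its F statistic. In bulk, up to 4 genes per mural list with the smallest p were named beside the rule markers. Alternatives used limma 3.58.1 (voom), DESeq2 1.42.0, other filters and scaling, a replicate block and leaving out each library. The procedures were tested on simulated data. Promoter letters came from RefSeq. One marker result of the Myh11 set is not reported here.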

Additional observations from a re-analysis of the deposited data

Results flagged for a closer look

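Among 33 mural genes, 92 groups of 4 or 6 bulk libraries were examined for a library far from the others of its group. Such a library was found in 9 of them (9.78%). The limit used assumes normally spread values, and a group with all libraries but 1 at 0 passes it by construction. The share was therefore not set against chance. Rgs5 stood at 352.0 CPM in PNF P1 B, where the next highest library held 109, and Steap4, a metalloreductase listed with the pericyte genes, at 772 CPM in the same library beside 145. Adra1a stood at 0.923 CPM in PNF P1 B, with the others at 0. PNF E18.5 A, a library with 43.0% of its counts from erythroid genes, held 5.98 CPM of Adra1a beside 0.0973 and 53.2 CPM of Dll4, the endothelial Notch ligand, beside 2.33. PPF P30 A held 30.4 CPM of Jag2 beside 9.27, and 0.767 CPM of Trpc6, a cation channel, with the others at 0. PPF P30 D held 12.4 CPM of Ptgir, the prostacyclin receptor, beside 3.22. PPF P30 B held 4.28 CPM of Synpo2, an actin-bundling protein, with the others at 0.

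Hashtag UMIs, outside the gene measurements, numbered 5005772 in the kept cells of tube 1 and 2674082 in those of tube 2. They are not tied to a sample in the sources used here, and their values by set follow under the other observations.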

How the results depend on the processing

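The share of members depended on the rule. In tube 1 and tube 2 it was 3.42% and 8.53% with at least 1000 genes per cell, 0.446% and 1.17% with 3 markers, 0.424% and 1.32% when a marker needed 2 UMIs, 2.48% and 6.26% without Des, 0.808% and 0.925% after thinning, and 0.365% and 0.711% with at least 2 of the 4 given markers, the last chosen after seeing the data. The Kcnj8, Abcc9 and Des set then made up 10.98% and 25.0% of members with 3 markers, 24.4% and 55.6% with 2 UMIs, 53.1% and 40.9% after thinning, 0% by construction with the given markers, and 88.5% in tube 1 at 5% mitochondrial UMIs. Of the ratios recomputed for named genes, 1850 stayed within their interval or call, 241 moved and 1 reversed, Cfd in the Kcnj8, Abcc9 and Des set of tube 2, at 1.46 with 5% mitochondrial UMIs. Most moves came from settings that redefine the members: 20 of 22 ratios moved after thinning, 59 of 124 with 2 UMIs per marker, 47 of 103 with 2 given markers and 45 of 117 with 3 markers, against 0 of 240 without shared barcodes. Removing called doublets gave no value, since none was called.

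Between lineages 105 genes passed; there were 426 with no count filter, 28 with a replicate block, 320 without the 2 erythroid-rich libraries, 1 when every group had to pass the filter, 160 with voom, 836 with DESeq2 and 2 to 1480 when 1 library was left out (without PPF P1 A and without PNF P30 B). The 1 mural call became 2, 0, 3, 0, 2, 5 and 0 to 5 under these settings. Between ages 117 genes passed (65 higher, 52 lower); there were 210 with no filter, 20 with the block, 545 without the erythroid-rich libraries, 983 with voom, 1278 with DESeq2, 0 to 1702 with a library left out (without PNF E16.5 B and without PNF P30 B) and 111 higher and 36 lower with RLE scaling. The 0 mural calls became 2 without the erythroid-rich libraries, 2 with voom, 6 with DESeq2 and 0 to 9 with a library left out. Replicate letters did not pair the libraries (correlations of 62 pairs from -0.206 to 0.14), so the block is given here only; with it the P2rx1 difference had an edgeR adjusted p of 0.076.

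These log2 differences changed sign. Between ages Mcam became 0.07 with RLE scaling and 0.05 with DESeq2. Des became 0.28 with RLE, 0.01 without a filter and 0.28 with DESeq2. It became 0.43 without the erythroid-rich libraries and 0.05 with a count needed in every group. Kcnj8 became -0.05 with the replicate block and -0.68 with voom, and Notch3 became 0.12 without the erythroid-rich libraries. Between lineages Kcnj8 became -0.23 without the erythroid-rich libraries, and with voom Notch3 became 0.27, Des 0.03 and Adra1a 0.06. With 1 library left out, the age differences spanned -5.89 to 0.44 for Des, -1.61 to 4.35 for Jag2, -2.81 to 0.53 for Kcnj8, -0.80 to 0.87 for Mcam, -5.99 to 0.13 for Notch3 and -2.93 to 4.43 for Steap4. The lineage differences spanned -2.27 to 0.01 for Colec11, -0.89 to 2.29 for Des, -0.44 to 1.51 for Kcnj8 and -0.64 to 2.61 for Notch3. Rgs5 kept its sign, from -0.98 to -0.65 between lineages and from -1.63 to -1.14 between ages. P2rx1 spanned -7.16 to -4.46 between lineages. Without PNF P30 B the median of all genes moved to 0.33 between lineages and -1.56 between ages. A library left alone in its group was assumed to vary like the other groups. The cause of these changes was not tested.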

Other observations

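Of the 10 hashtag rows, hashtags 1 to 6 held nearly all counts, and hashtags 7 to 10 held 0 to 2696 UMIs per tube. A single hashtag could be assigned to 62.1% of the Rgs5 or Notch3 set in tube 1 and 72.0% in tube 2, against 31.5% and 27.5% of the other kept cells, and no hashtag to 27.6% and 20% against 63.7% and 66.3%. Cells of the Kcnj8, Abcc9 and Des set were like the other kept cells here, with a single hashtag in 26.2% and 25.4%. More than 1 hashtag was seen in 10.3% and 8.0% of the Rgs5 or Notch3 set and in 4.83% and 6.17% of the other kept cells.

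The Rgs5 or Notch3 set was spread unevenly over the hashtags. In tube 1 it took 20 of 1378 cells of hashtag 1, 6 of 830 of hashtag 2, 2 of 646 of hashtag 3, 7 of 981 of hashtag 4, 0 of 612 of hashtag 5 and 1 of 1342 of hashtag 6. In tube 2 it took 7 of 240, 3 of 119, 7 of 281, 0 of 264, 0 of 163 and 1 of 257. Hashtags 5 and 6 thus held 1 cell of the set in each tube. The series design names 8 pooled samples, but only hashtags 1 to 6 had cells assigned. Which sample or samples a hashtag stands for, and whether it is the same in both tubes, is unknown. No test was made.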
